A study of Mus musculus with 4 samples.

Results

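Decorin, biglycan and 6 related secreted proteins of the small leucine-rich proteoglycan family were followed across 4 mouse RNA samples, each read on 1 Agilent single-colour whole-genome array. The 8 genes are Dcn, Bgn, Aspn and Ecm2 of class I, Epyc and Ogn of class III, Chad of class IV and Podn of class V, out of 30419 named genes or probes on the array. They were chosen by family membership, and each was matched by its symbol to a single probe, spotted in 1 place per array. The tissue called transfected tissue here arose from mesenchymal stem cells of C3H mouse embryos after transfection with a synthesised mouse gene, named only A, in pCAGGS, a plasmid vector that drives strong expression in most mammalian cells. Ligament came from A-transgenic mice and from wild type mice, both of the C57BL/6J background, and the transgene was the same pCAGGS construct injected into fertilised eggs. Untransfected stem cells were the remaining sample. The labels give no age for the animals, and do not say which ligament was taken, how many animals gave RNA or whether an empty vector was used, and since they do not name A, its level could not serve as a check of the labels. Each group held 1 array, so every difference lacks a replicate check and no p-value is given. Strain and origin differ together wherever cultured material is set against ligament.

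Small leucine-rich proteoglycans are matrix proteins built from repeats rich in leucine, curved so that they can lie along a collagen fibril. They set the width and spacing of fibrils in tendon, ligament, cornea and skin, and several of them bind growth factors of the TGF-beta family. Several carry a chondroitin or dermatan sulphate chain, a sugar polymer built by a series of Golgi enzymes, and others, asporin among them, lack one. Decorin and biglycan are the most studied pair in tendon, where loss of either in mice alters fibrils.

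The probes of Dcn and Bgn are shown because these class I relatives parted in every comparison except that between the ligaments, where both lay within 2-fold. The Dcn probe lies on chromosome 10, from 96980233 to 96980292, and the Bgn probe on chromosome X, from 70738554 to 70738613, both on the plus strand of mm9; they begin at bases 1230 and 927 of the transcripts in the array design. Each has 60 bases, and the capitals in the Dcn probe mark a TAA that ends an otherwise open reading frame, while the Bgn probe holds an uninterrupted frame throughout.
Dcn: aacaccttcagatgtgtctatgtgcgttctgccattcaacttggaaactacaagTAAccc
Bgn: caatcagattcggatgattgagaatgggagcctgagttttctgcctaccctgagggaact

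Signal is given as log2 of the background-subtracted spot signal over the array's 75th percentile, so that 0 means the brightness of that percentile and each unit is a doubling. Levels are compared for the same probe across arrays, never between probes. The share of spots well above background ranged from 49.0% to 56.3% per array, and no spot was saturated. Spots of the same probe, for probes repeated 10 times on an array, varied by an SD of 0.0649 to 0.184 on the log2 scale, and the scanner software put the error of the members' spots above background at 10.0% to 12.0% of the signal. Both cover spot noise within an array and say nothing of variation among cultures or animals. Genes were compared where at least 1 of a pair of arrays was well above background. Where the dimmer one was not, the difference is a bound, set against the lowest signal well above background on that array or the dim probe's own, and is written as "at least"; no value is given if the brighter spot does not exceed that limit. Differences are log2 values, and 2-fold (a difference of 1 or more) is the threshold for calling a gene higher or lower. Of the 32 values of the 8 genes, 4 were not well above background. Of 8 tendon and ligament markers, 7 were well above background in the transfected tissue (Thbs4 was not), 8 in A-transgenic ligament, 7 in wild type ligament (Mkx was not) and 7 in stem cells (Kera was not). The summed signal of 7 skeletal muscle markers, in units of the 75th percentile, was 4030 in A-transgenic and 4750 in wild type ligament, against 0.647 in the transfected tissue and 1.87 in stem cells. In such mixed samples, fewer cells of a type and less RNA per cell cannot be told apart.

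Decorin binds the surface of collagen fibrils and restrains their sideways fusion. Dcn stood at 6.46 in the transfected tissue, 6.72 in A-transgenic ligament and 6.35 in wild type ligament, with stem cells at 3.71. The tissue and both ligaments lay within 2-fold of each other and stem cells lay lowest, 6.24-fold below wild type ligament and further below the others. The first statement, and the size of the gap in the second, depend on the scaling. The log2 difference of the tissue from wild type ligament was 0.11 here, 1.85 with quantile normalization and 1.73 in the deposited values, and that of wild type ligament from stem cells was 2.64 here, 1.86 with quantile normalization and 1.73 in the deposited values.

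Biglycan, the closest relative of decorin, also binds collagen and can signal through Toll-like receptors when released from the matrix. Bgn stood at 3.58 in the transfected tissue, 0.62 in A-transgenic ligament and 0.87 in wild type ligament, with stem cells at 4.26. Unlike Dcn, it was highest in stem cells, and both cultured samples were high and both ligaments low, with a step of 2.71 between the transfected tissue and wild type ligament and less than 2-fold within each pair.

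Asporin has a stretch rich in aspartate, and in cell studies it binds TGF-beta and curbs mineralisation of the periodontal ligament. Aspn stood at 1.83 in the transfected tissue, 1.60 in A-transgenic ligament and -0.53 in wild type ligament, with stem cells at 2.57. Wild type ligament was the low sample, 4.39-fold below the next lowest, A-transgenic ligament, while neighbours among the other samples lay within 2-fold of each other.

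Ecm2 encodes a less studied secreted protein with leucine-rich repeats. Its levels were -0.52 in the transfected tissue, -0.32 in A-transgenic ligament and -1.58 in wild type ligament, with stem cells at -1.34. The range over the 4 arrays was 1.26, the narrowest of the 8 genes, and no step between neighbours in the order reached 2-fold.

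Epiphycan, of class III, is a dermatan sulphate proteoglycan of growth plate cartilage. Epyc stood at 0.96 in the transfected tissue and -3.44 in stem cells, and it was not well above background in A-transgenic ligament (-6.16) or wild type ligament (-5.65). It was therefore detected on both arrays of cultured material and on neither ligament array, with the transfected tissue 21.2-fold above the stem cells. The lowest signal well above background was -3.41 on the wild type and -3.90 on the A-transgenic ligament array. It was -5.71 on the array of the transfected tissue and -5.79 on that of stem cells. The stem cell level of Epyc lay under the wild type limit, so stem cells and wild type ligament cannot be ranked for this gene. Of the 17900 genes compared between the transfected tissue and stem cells, 25 had a larger difference.

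Osteoglycin, also called mimecan, is a class III protein of bone, cornea and fibrous tissue that takes part in collagen fibril assembly. Ogn was 5.34 in the transfected tissue, 2.85 in A-transgenic ligament and 1.40 in wild type ligament, with stem cells at 4.97. The cultured samples lay within 2-fold of each other, and each further step downwards, to A-transgenic and then to wild type ligament, exceeded 2-fold.

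Chondroadherin, of class IV, is a cartilage and bone protein that binds collagen and integrins on cartilage cells. Chad was not well above background in the transfected tissue (-6.13) or stem cells (-5.76) and stood at 0.44 in A-transgenic and -1.08 in wild type ligament. In detection it was the reverse of Epyc, well above background in both ligaments and dim in both cultured samples. For Epyc the ligament arrays, where it was dim, had the higher detection limits.

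Podocan, of class V, binds collagen and slows the growth of smooth muscle cells. Podn was -3.74 in the transfected tissue, 1.02 in A-transgenic ligament and 0.82 in wild type ligament, with stem cells at -0.19. The ligaments lay close together, stem cells lay just 2.01-fold below wild type ligament, and the transfected tissue was 11.8-fold lower than stem cells.

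**Figure D1:**
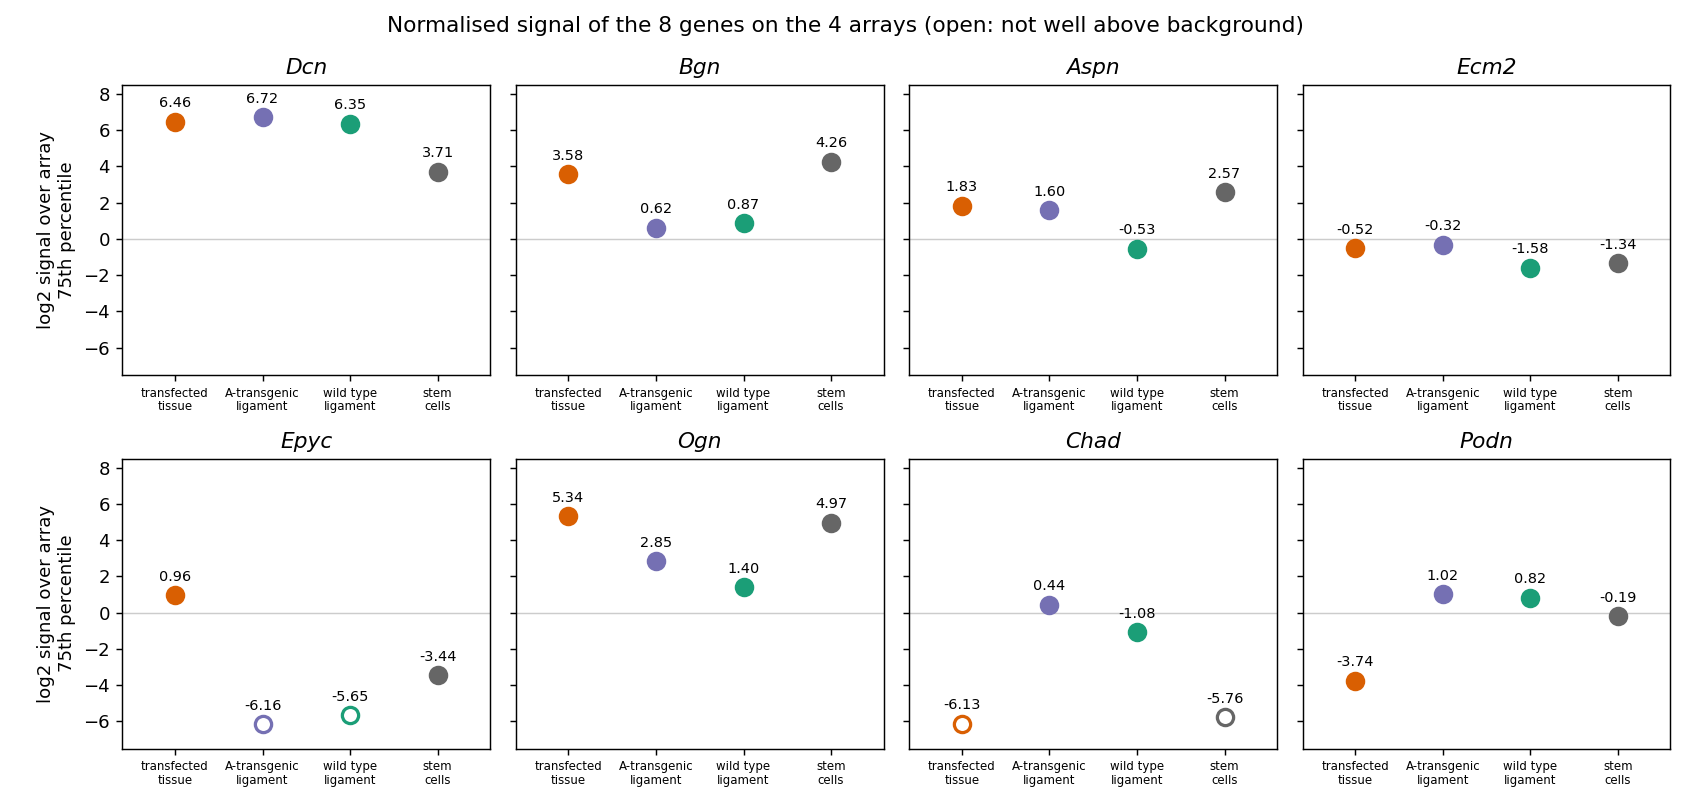
Log2 signal over the array's 75th percentile (vertical axis) of each of the 8 genes on the 4 arrays (horizontal axis), 1 point per array with its value written above it, and open points where the spot was not well above background. Dcn is low in stem cells alone, Bgn and Ogn are higher in both cultured samples than in both ligaments, Epyc is open in the ligaments and Chad in the cultured samples.

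The transfected tissue was set against stem cells to ask what accompanied the introduction of A in culture. Epyc (4.40) and Dcn (2.76) were higher in the tissue, Podn (-3.56) was lower, and Ecm2 (0.82), Ogn (0.38), Bgn (-0.68) and Aspn (-0.73) lay within 2-fold. Chad gave no value. The 2 genes higher and 1 lower among 7 compared stand beside 24.3% of all 17900 compared genes past 2-fold, 11.0% higher and 13.3% lower. The median log2 difference of the 7 was 0.38, against -0.08 over all compared genes. Podn lay below all but 73 of the compared genes, while 185 genes had a larger difference than Dcn. The difference of Dcn was larger with quantile normalization (3.71) and in the deposited values (3.47), and that of Epyc smaller with normexp background correction (3.72). Markers of other tissues differed as well. Of 4 compared fat markers 3 were higher in the transfected tissue, Cfd at least 52.3-fold, Adipoq at least 22.1-fold and Plin1 at least 16.4-fold, all dim in stem cells, and the summed signal of the 6 on the array was 4.12 in the transfected tissue and 3.35 in stem cells, as the bright Fabp4 (-0.56) lay within 2-fold. Of 5 compared bone markers 2 were higher, Phex 9.43-fold and Dmp1 at least 7.93-fold, with sums of 3.52 in the transfected tissue and 3.16 in stem cells and with Bglap, Ibsp and Sp7 dim in both. Of 8 tendon markers 5 had values under 2-fold, Kera was higher and Col1a1 (-1.07) and Scx (-1.75) were lower. Of 9 compared cartilage markers 8 had values under 2-fold and Col2a1 (-1.04) was lower. Some of these values are bounds, which do not place a gene within 2-fold. Thbs4 was at least 1.70-fold and Matn3 at least 1.26-fold lower in the transfected tissue, and Hapln1 at least 1.32-fold higher. The summed signal of the tendon markers was 42.5 in the transfected tissue and 88.5 in stem cells, and that of the cartilage markers 11.1 in the transfected tissue, where Matn1 and Matn3 were dim, and 17.9 in stem cells, where Matn1 and Hapln1 were dim. The part of other cell types in these differences was not tested.

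A common scaling factor cancels between probes of the same array, although quantile normalization and the deposited values, which do not rescale by a single factor, still alter such a contrast. Relative to Bgn, Dcn was 10.8-fold higher in the transfected tissue than in stem cells, a log2 difference of 3.44. The same Dcn over Bgn contrast was 6.03 for wild type ligament against stem cells and 0.62 for A-transgenic against wild type ligament. The transfected tissue thus had a Dcn over Bgn contrast above that of its parent cells and below that of wild type ligament, from which it differed by -2.59. With quantile normalization that last value was -1.25 and in the deposited values -1.26, a gap of 2.37-fold and 2.40-fold in place of 6.04-fold. Against stem cells the contrast of the transfected tissue was 4.21 with quantile normalization and 3.89 in the deposited values, and that of wild type ligament 5.46 and 5.15 in those settings. Relative to Podn, Dcn was 79.5-fold higher in the transfected tissue than in stem cells. That contrast was 63.3-fold with normexp background correction, 112-fold with quantile normalization and 116-fold in the deposited values. Aspn relative to Bgn differed by -0.05 between the transfected tissue and stem cells and by 2.39 between A-transgenic and wild type ligament.

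**Figure D2:**
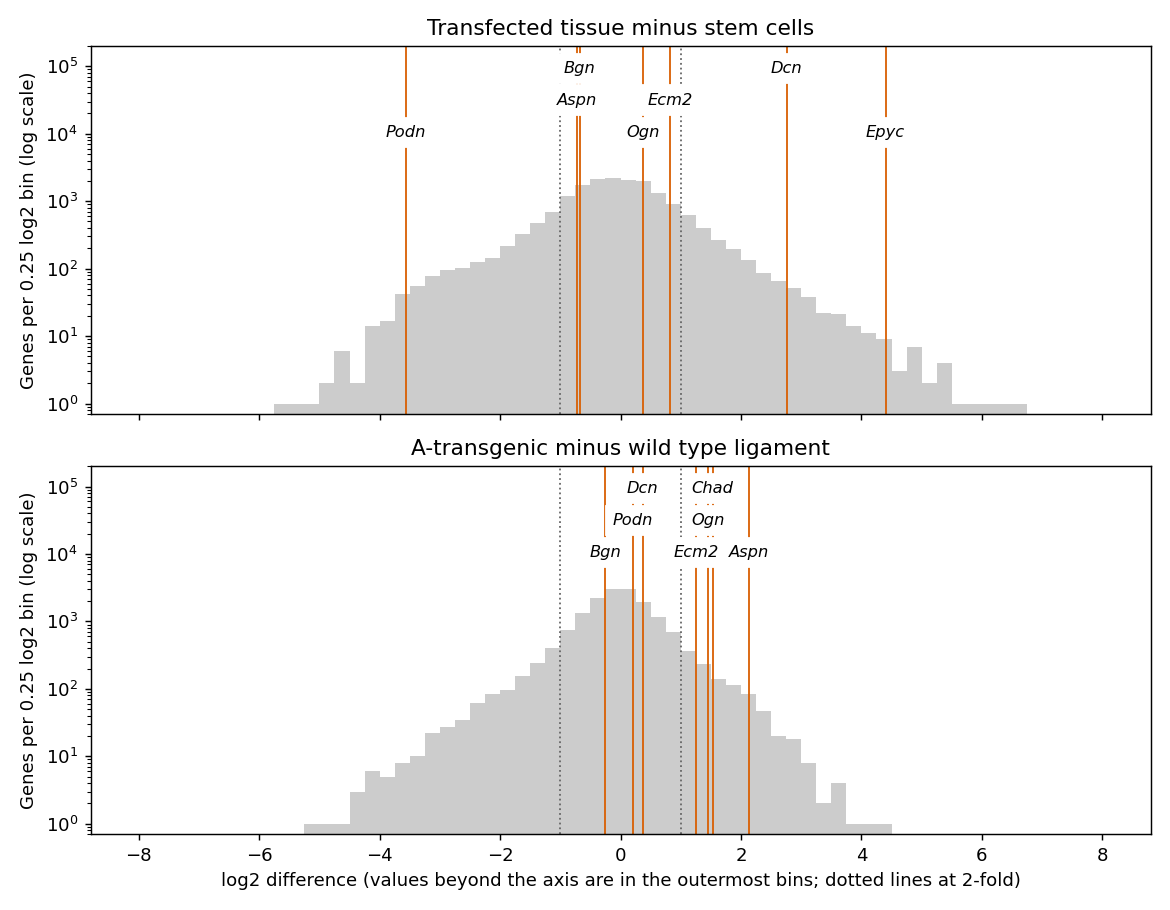
Histograms of the log2 difference (horizontal axis, dotted lines at 2-fold) over all compared genes (vertical axis, genes per bin, log scale) for the transfected tissue minus stem cells (above) and A-transgenic minus wild type ligament (below), with orange lines at the family members that had a value. Epyc, Dcn and Podn stand out in the upper panel, and Aspn, Chad, Ogn and Ecm2 lie above 2-fold in the lower one.

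A-transgenic ligament was set against wild type ligament to ask what accompanies A in the animal. Aspn (2.14), Chad (1.53), Ogn (1.45) and Ecm2 (1.26) were higher in A-transgenic ligament, and Dcn (0.37), Podn (0.21) and Bgn (-0.25) lay within 2-fold, while Epyc gave no value. The 4 higher and 0 lower among 7 compared stand beside 13.3% of 16425 compared genes past 2-fold, 6.29% higher and 7.05% lower, and the median was 1.26 against -0.03 over all compared genes. Of the 4, Ecm2 was below 2-fold with normexp background correction (0.79). Dcn and Bgn, the class I pair with sugar chains, were thus not among the genes past 2-fold in this comparison, and Aspn was 3.40-fold higher relative to Dcn.

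Markers of other tissues also differed between the ligament arrays. The summed signal of 10 cartilage markers was 14.6 in A-transgenic and 3.01 in wild type ligament, with Matn1 dim in A-transgenic ligament and Acan, Sox9, Matn1, Matn3 and Hapln1 dim in wild type ligament. For 8 bone markers it was 213 in A-transgenic and 53.4 in wild type ligament, with Sp7 dim in both. The brightest bone marker, Bglap2, was at 7.46 in A-transgenic and 5.25 in wild type ligament and weighs most in these sums. Of 7 compared bone markers 6 were past 2-fold higher in A-transgenic ligament, and Ibsp (-0.42) lay within 2-fold. For 6 epidermal markers the sum was 156 in A-transgenic and 27.9 in wild type ligament, with all of them well above background. It ran the other way for 7 neutrophil markers, at 103 in A-transgenic and 528 in wild type ligament, and for 5 erythroid markers, at 118 in A-transgenic and 547 in wild type ligament, again with all well above background. Of the 8 tendon markers, which include Fmod and Kera of class II, 6 were past 2-fold higher in A-transgenic ligament. Comp is counted among both the tendon and the cartilage markers. The sum of the tendon markers, to which the bright Col1a1 belongs, was 147 in A-transgenic and 161 in wild type ligament. Col1a1 itself was at 6.70 in A-transgenic and 7.22 in wild type ligament. The part of these cell types in the differences of Aspn, Chad, Ogn and Ecm2 was not tested.

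The native ligament of wild type mice was compared with the stem cells. Chad was at least 25.6-fold higher, Dcn 6.24-fold and Podn 2.01-fold, while Bgn (-3.39), Aspn (-3.10) and Ogn (-3.56) were lower and Ecm2 (-0.23) lay within 2-fold. Epyc gave no value, as its stem cell signal did not exceed the limit on the wild type array. The bound for Chad was 2.74 (log2) with normexp background correction and 3.83 with quantile normalization, against 4.68 here, and Dcn was at 1.73 in the deposited values, with both past 2-fold in each of these settings. Most genes differed here, as 62.2% of 16603 were past 2-fold, 37.7% higher and 24.5% lower. The 3 members higher and 3 lower among 7 stand beside these shares, and whether they depart from them was not tested. Podn (1.00) sits at the threshold, and was under it with normexp background correction (0.83), in the deposited values (0.91), with quantile normalization and with the percentile over detected probes.

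The transfected tissue was then set against each ligament. Against wild type ligament, Epyc was at least 20.7-fold higher, Ogn 15.3-fold, Bgn 6.54-fold, Aspn 5.16-fold and Ecm2 2.08-fold. Chad was at least 24.8-fold lower in the transfected tissue and Podn 23.6-fold lower. The bounds move with the settings: on the log2 scale Epyc was at 4.37 here, 3.09 with normexp background correction and 5.19 in the deposited values, and Chad at -4.63 here, -3.38 with normexp, -3.74 with quantile normalization and -4.04 in the deposited values. Ogn was at 3.94 here and 4.79 with quantile normalization. These 5 higher and 2 lower of 8 stand beside 62.7% of 16542 genes past 2-fold, 23.0% higher and 39.7% lower. Ecm2 was within 2-fold with normexp background correction (0.60). Against A-transgenic ligament, Epyc was at least 29.1-fold higher, Bgn 7.80-fold and Ogn 5.63-fold, Chad at least 71.4-fold and Podn 27.2-fold lower, and Aspn (0.23), Ecm2 (-0.20) and Dcn (-0.25) within 2-fold, the last at 1.28 with quantile normalization and 1.21 in the deposited values. The limits for Epyc and Chad are again set by the processing, with Epyc at 4.86 here, 3.31 with normexp, 5.64 with quantile normalization and 5.97 in the deposited values, and Chad at -6.16 here, -4.56 with normexp and -5.41 with quantile normalization. Ogn was at 2.49 here, 3.43 with quantile normalization and 3.19 in the deposited values. The background was 60.8% of 17608 genes, 21.8% higher and 39.1% lower. These comparisons share the array of the transfected tissue, and those before it the stem cell and wild type arrays, so they are not separate observations.

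Of the 8 genes, 5 sit in a pair of gene clusters, each of which holds class II relatives as well. By the RefSeq gene order, Dcn, Lum, Kera and Epyc follow each other on chromosome 10, and Ecm2, Aspn, Omd and Ogn on chromosome 13. In the transfected tissue against stem cells, all 4 genes of the chromosome 10 cluster were higher, Lum by 4.84, Epyc by 4.40, Dcn by 2.76 and Kera by at least 2.56, beside 11.0% of all compared genes higher. In the same comparison, all 4 genes of the chromosome 13 cluster lay within 2-fold, from -0.73 for Aspn to 0.82 for Ecm2. In A-transgenic against wild type ligament, it was the chromosome 13 genes that were all past 2-fold, Aspn by 2.14, Ogn by 1.45, Ecm2 by 1.26 and Omd by 1.19, beside 6.29% of all compared genes higher. With normexp background correction Ecm2 was below 2-fold (0.79), so that not all 4 passed in that setting. On chromosome 10, Kera (1.44) was past 2-fold in that comparison and Lum (0.74) and Dcn (0.37) were not. In the transfected tissue against wild type ligament, all 4 chromosome 13 genes were also higher, beside 23.0% of all compared genes. Ecm2 among them was within 2-fold with normexp background correction (0.60). In wild type ligament against stem cells, 3 of 4 chromosome 13 genes were lower, beside 24.5% of all compared genes. All 3 compared chromosome 10 genes were higher there, beside 37.7%.

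The flanking protein-coding genes on the array did not share these values in the comparison named below for each cluster. Beside the chromosome 10 cluster, Eea1 (0.22) and Btg1 (-0.82) on the one side and Atp2b1 (-0.74) and Poc1b (-0.40) on the other lay within 2-fold in the transfected tissue against stem cells, and Ccer1 gave no value. Beside the chromosome 13 cluster, Bicd2 (0.06), Ippk (-0.22), Cenpp (-0.57), Nol8 (0.40) and Iars (0.23) lay within 2-fold in A-transgenic against wild type ligament. In the transfected tissue against wild type ligament, Bicd2 (1.43) and Iars (1.22) were past 2-fold, while Ippk (-0.10), Cenpp (0.01) and Nol8 (0.40) were not. Cenpp was lower in the transfected tissue than in stem cells (-1.91). Omd (osteomodulin), Lum (lumican) and Kera (keratocan) are keratan sulphate proteoglycans of class II.

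**Figure D3:**
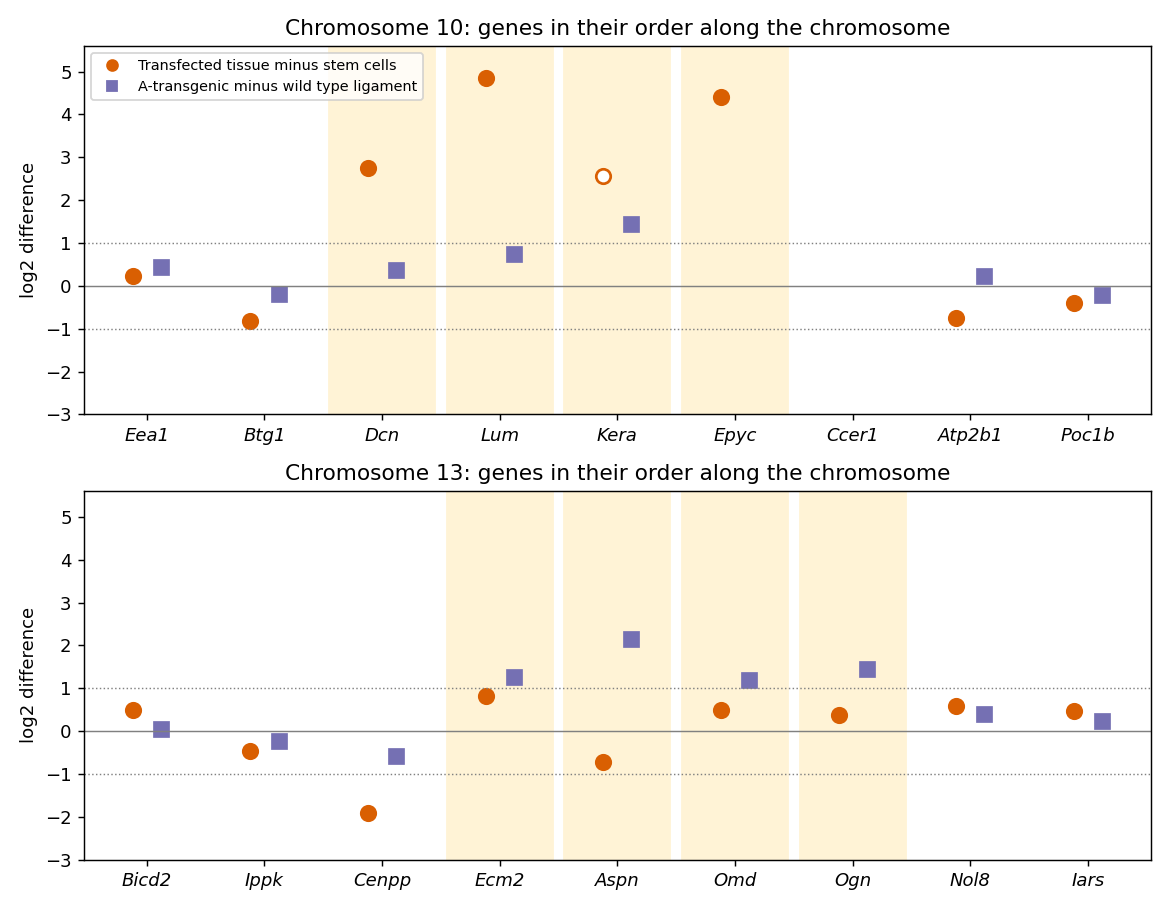
Log2 difference (vertical axis, dotted lines at 2-fold) of the genes of the chromosome 10 (above) and chromosome 13 (below) clusters, shaded, and of their flanking genes in chromosomal order (horizontal axis). Circles give the transfected tissue minus stem cells and squares A-transgenic minus wild type ligament, an open symbol is a bound, and the circles leave the 2-fold band over the upper cluster and the squares over the lower one, beside which the circle of Cenpp (-1.91) is also outside it.

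The promoters of the chromosome 13 members are shown because these genes were higher together in A-transgenic ligament, although Ecm2 was below 2-fold with normexp background correction (0.79). That of Chad, which lies elsewhere and was higher in the same comparison, is shown with them. RefSeq promoters of GRCm38.p6, from 250 bases before to 50 bases after the start, were found for 7 of the 8 genes, all but Dcn. Capitals mark every match to TATAAA (either strand) and CANNTG (its own reverse complement), the second being the short core of the sites bound by helix-loop-helix factors such as scleraxis, the tendon regulator. Another motif, TGANTCA, the AP-1 core, was searched on both strands and is not in these windows.
Ecm2, chr13:49504560-49504859, plus strand: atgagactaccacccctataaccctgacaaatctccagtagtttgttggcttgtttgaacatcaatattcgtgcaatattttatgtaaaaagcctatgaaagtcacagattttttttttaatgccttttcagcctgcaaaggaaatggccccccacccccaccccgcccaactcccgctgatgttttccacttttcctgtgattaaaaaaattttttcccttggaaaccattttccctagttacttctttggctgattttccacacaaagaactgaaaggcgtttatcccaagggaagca
Aspn, chr13:49544193-49544492, plus strand: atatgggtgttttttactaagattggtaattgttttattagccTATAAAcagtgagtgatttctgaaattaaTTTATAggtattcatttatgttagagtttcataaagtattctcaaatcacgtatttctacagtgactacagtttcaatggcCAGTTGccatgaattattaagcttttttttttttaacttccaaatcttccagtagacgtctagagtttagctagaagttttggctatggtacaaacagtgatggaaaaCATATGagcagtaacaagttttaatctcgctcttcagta
Ogn, chr13:49607765-49608064, plus strand: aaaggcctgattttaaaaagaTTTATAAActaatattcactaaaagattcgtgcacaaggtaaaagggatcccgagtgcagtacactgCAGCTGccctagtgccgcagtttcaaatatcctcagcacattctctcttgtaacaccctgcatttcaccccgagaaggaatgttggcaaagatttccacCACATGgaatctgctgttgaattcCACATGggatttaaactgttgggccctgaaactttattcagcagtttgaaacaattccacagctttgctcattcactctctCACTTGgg
Chad, chr11:94564797-94565096, plus strand: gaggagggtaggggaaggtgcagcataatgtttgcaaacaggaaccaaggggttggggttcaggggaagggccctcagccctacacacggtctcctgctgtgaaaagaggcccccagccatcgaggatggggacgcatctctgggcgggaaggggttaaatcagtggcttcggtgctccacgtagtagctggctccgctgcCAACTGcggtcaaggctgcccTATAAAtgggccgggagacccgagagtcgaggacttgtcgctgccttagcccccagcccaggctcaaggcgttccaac

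CANNTG matched 0 times in the Ecm2 window, 2 times in Aspn, 4 times in Ogn and 1 time in Chad, and 72.3% of 32851 mouse promoters of this length hold it. TATAAA was found in Aspn, Ogn and Chad, and in 13.6% of all promoters, the Ogn matches lying on opposite strands and overlapping each other. In Chad the match began 28 bases before the start. TGANTCA is held by 7.81% of all promoters. GC content was 41.0% in Ecm2, 31.0% in Aspn and 42.3% in Ogn, against 61.0% in Chad and a median of 52.7% over all promoters. A match describes letters only.

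The class II relatives give the nearest comparison within the family. For these and the gene groups that follow, the shares of all compared genes past 2-fold are those given above, 11.0% higher and 13.3% lower in the transfected tissue against stem cells and 6.29% higher and 7.05% lower in A-transgenic against wild type ligament. In the transfected tissue against stem cells, 2 of 5 were higher and 1 was lower, Prelp at -1.03, and the median was 0.49 against 0.38 for the 7 compared members. In A-transgenic against wild type ligament, 3 of 4 were higher and 0 lower, among them Fmod (2.15). In wild type ligament against stem cells the median was 2.37 over 5 class II genes and -0.23 over the 7 members, and both lists held values above and below 0. Among other relatives, Podnl1, of class V like Podn, was also lower in the transfected tissue than in stem cells (-1.26), and Chadl, a chondroadherin-like gene, was higher (2.20). Optc and Nyx were dim in both ligaments.

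Of 25 genes for enzymes that build chondroitin and dermatan sulphate chains, 23 were compared between the transfected tissue and stem cells, of which 3 passed 2-fold upwards and 3 downwards (median 0.08), close to the share of all genes past 2-fold, 24.3%. Chst15, a sulphotransferase, was at 1.57, the epimerase Dse, which turns chondroitin into dermatan sulphate, at 1.17, and Csgalnact1, which starts chondroitin chains, at 1.02. Ugdh, which makes the UDP-glucuronic acid used in the chain, was at -1.02, the sulphotransferase Chst7 at -1.04, and the synthase Chsy3 at least 6.55-fold lower. In A-transgenic against wild type ligament, 2 of 22 were higher, the epimerase gene Dsel at 1.49 and Ugdh at 1.01, and 0 were lower. In wild type ligament against stem cells, 15 of 23 were lower and 3 were higher, beside 24.5% of all compared genes lower and 37.7% higher. The median was -2.29 against 0.30 over all genes, and Chst14, the dermatan 4-O-sulphotransferase, was at -4.99.

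Of 12 genes for collagens, which these proteins bind, 0 were higher and 4 were lower in the transfected tissue than in stem cells, Col5a1 (-1.27), Col12a1 (-1.19), Col1a1 (-1.07) and Col2a1 (-1.04), with a median of -0.24. Between ligaments, Col2a1 (2.16), the cartilage collagen and also 1 of the cartilage markers, and Col1a2 (1.02) were higher in A-transgenic ligament and 0 were lower. The collagen counts for the transfected tissue against stem cells stand beside 11.0% of all compared genes higher and 13.3% lower. Those between the ligaments stand beside 6.29% higher and 7.05% lower. In wild type ligament against stem cells, 0 were higher and 5 lower, beside 37.7% of all genes higher and 24.5% lower, among them Col6a1 (-3.79) and Col6a2 (-4.09), chains of the collagen that biglycan binds in filament networks.

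Proteases and signalling partners were examined in the same way. Bmp1, the protease that removes the propeptide of biglycan and osteoglycin, lay within 2-fold in the transfected tissue against stem cells (-0.28) and in A-transgenic against wild type ligament (0.03). Of 9 compared cleavage genes, 2 were higher in the transfected tissue than in stem cells, Mmp14 and Adamts5, both at 1.57, and 1 lower, Mmp13, by at least 2.19-fold. Between ligaments, 0 of 7 cleavage genes were past 2-fold. Among 16 compared receptors and ligands, Tlr4, a receptor that biglycan can engage, was higher in the transfected tissue than in stem cells (1.26), and Cd44 (-2.05), Tgfb3 (-1.63) and Ccn4 (-1.01) were lower. Of 17 between the ligaments, Ccn4 (2.09), whose protein binds decorin and biglycan, and Tlr4 (1.64) were higher in A-transgenic ligament and 0 were lower.

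**Figure D4:**
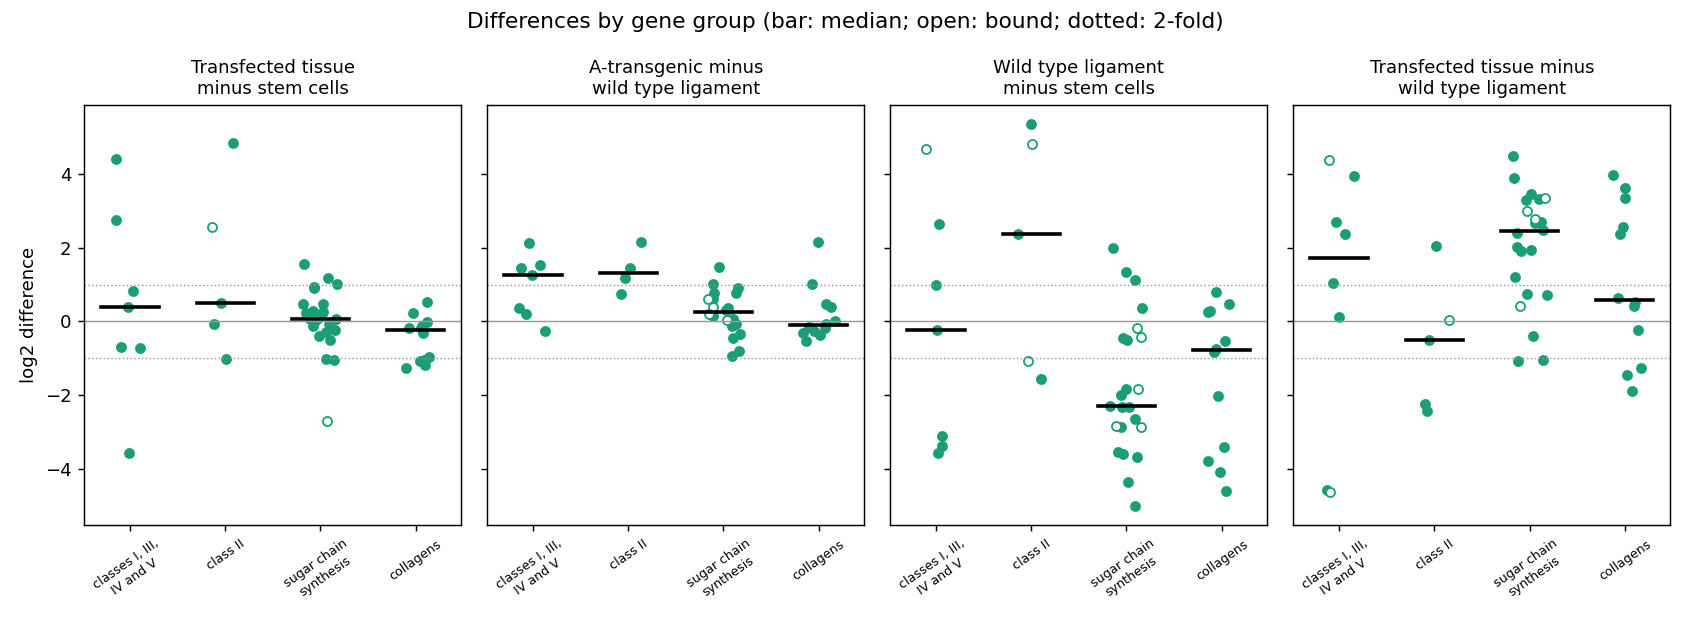
Log2 differences (vertical axis, dotted lines at 2-fold) of single genes in 4 gene groups (horizontal axis), 1 panel per comparison, with a bar at the group median and open points for bounds. Most sugar chain synthesis genes lie below 0 in wild type ligament minus stem cells and above 0 in the transfected tissue minus wild type ligament, where the members spread in both directions.

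Genes with the most similar pattern were sought for the 6 members well above background on all arrays, among 13028 other such genes, by the root mean square difference of the 4 centred log2 signals. With 4 points and so many candidates close matches arise readily, and the list is a description. For Aspn the nearest was Col2a1, at 0.132, followed by Depp1 at 0.173. For Ogn the nearest were Vps37d (0.055), Pdia4 (0.0913) and Sec24d (0.0961), and for Ecm2 Pfkfb3 (0.0504), Zfp182 (0.0772) and D8Ertd158e (0.0951). Bgn was nearest to Gm5637 (0.0325) and Dcn to Zfp72 (0.117), Zfp638 (0.167) and Gucy1b2 (0.168). The nearest to Podn, Gm4841, lay at 0.306.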

How the data were processed

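Total RNA of 4 samples was read on 1-colour (Cy3) arrays, 4 samples in 4 groups. Per the file headers, the authors' deposited spot intensity (processed signal) is background-subtracted and not normalized between arrays, and came from Agilent Feature Extraction 10.7.1.1, whereas the submitters' processing notes name 9.5.1.1. All arrays sat on 1 slide. From these intensities, log2 signals minus log2 of the array's 75th percentile over 43020 non-control spots were computed, leaving out outlier spots. Probes (39429) were named through RefSeq where their accession matched (26761) and by the file's name otherwise. A gene took the probe of highest mean signal. Python 3.11.15, numpy 2.4.6, pandas 2.3.3, R 4.3.3 and limma 3.58.1 were used, and the difference step was tested on simulated data. That check covered only genes well above background on both arrays, so the rule for bounds was not tested. The number of arrays limits precision, and 1 array per group allows no test.

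The members and gene lists were chosen with earlier results of these data known. Genes could be named if they were members, on a list of relatives, cluster genes, chain enzymes, proteases, collagens, signalling partners or tissue markers, or among the 3 most alike in pattern to a member; genes flanking the clusters were taken by position after the data were seen. Alternatives were normexp background correction (offset 50), quantile normalization, a percentile over detected probes, the deposited value table, whose normalization is not given in the sources used here, and filters on dim probes.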

Additional observations from a re-analysis of the deposited data

Results flagged for a closer look

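For a pair of genes the sign of the difference was not the same in culture and in the animal, and in each case 1 of the 2 values lay within 2-fold. Aspn differed by -0.73 (log2), within 2-fold, between the transfected tissue and stem cells and by 2.14 between A-transgenic and wild type ligament. Podn differed by -3.56 between the transfected tissue and stem cells and by 0.21, within 2-fold, between A-transgenic and wild type ligament. With 1 array per group the difference between these effects was not tested.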

How the results depend on the processing

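With 1 array per group no value has a replicate check, strain and origin differ together between cultured samples and ligament, and spot brightness near background limits Epyc in ligament and Chad in cultured samples to bounds. Over 291 recomputed values of the 8 genes under 8 settings, 0 values past 2-fold in the main setting changed sign. The 2-fold threshold was crossed by 10, and the cause was not tested. Some settings could not move a member, as each had 1 probe and no outlier spot. These were the mean of all probes (37 values), outlier spots kept (37) and only genes well above background on both arrays (32). Their values are no check of stability. With normexp background correction the values that crossed were Ecm2 and Podn. Ecm2 did so for A-transgenic against wild type ligament (0.79) and for the transfected tissue against wild type ligament (0.60). Podn did so in wild type ligament against stem cells (0.83). Podn also dropped just under the threshold with quantile normalization, the percentile over detected probes and the deposited values (0.91). Dcn in the transfected tissue was past 2-fold against wild type ligament with quantile normalization (1.85) and in the deposited values (1.73). Against A-transgenic ligament it was past 2-fold in the same settings (1.28 and 1.21), with the sign opposite to that of the main value (-0.25). Ecm2 in wild type ligament against stem cells, within 2-fold, was 0.20 with normexp. Called values of Dcn, Epyc, Ogn and Chad that moved by over 1.5 times are given beside their results, except that Epyc without a bound was 6.62 for the transfected tissue against wild type ligament and 7.12 against A-transgenic ligament. With only genes well above background on both arrays, 6 members had a value, by construction, in each comparison of ligament with cultured material (7 in the others), and the members lower in the transfected tissue numbered 1 against wild type ligament and 1 against A-transgenic ligament, where 3 in all were past 2-fold.

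Over all genes, those past 2-fold in A-transgenic against wild type ligament numbered 2191, against 980 with normexp and 4244 with no filter on dim probes. With no filter they numbered 6532 in place of 4345 for the transfected tissue against stem cells, 22457 in place of 10333 for wild type ligament against stem cells, 22642 in place of 10364 for the transfected tissue against wild type ligament, and 22035 in place of 10714 against A-transgenic ligament. The higher share of the calls for the transfected tissue against stem cells was 45.1%, 56.2% with the percentile over detected probes and 33.0% with normexp. For wild type ligament against stem cells it was 60.7%, 50.6% with quantile normalization, 49.7% in the deposited values and 77.8% with no filter. For the transfected tissue against wild type ligament it was 36.6%, 49.6%, 50.4% and 20.7% in the same settings, and against A-transgenic ligament 35.8%, 51.6%, 51.9% and 20.7%. The median of all genes for wild type ligament against stem cells was 0.30, -0.12 with quantile normalization, -0.15 in the deposited values and 1.56 with no filter. For the transfected tissue against wild type ligament it was -0.43, 0.13, 0.15 and -1.64 in the same settings, and against A-transgenic ligament -0.43, 0.14, 0.14 and -1.53. For the transfected tissue against stem cells it was -0.08, 0.07 with the percentile over detected probes and -0.19 with normexp. No paired analysis was possible because each group holds 1 array.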
